A study of Mus musculus with 12 samples.

Results

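The interaction between ISRIB and macrophage polarization was measured as a difference of differences. The M1 minus M0 change in the log2 level of a gene was taken in ISRIB-treated cells, and the same change in vehicle-treated cells was subtracted from it. All 12 of the 12 libraries of the study entered it, with 3 libraries in each of 4 groups, and 2356 of the 24552 gene symbols in the table had enough counts to be tested. The cells were macrophages that had been grown from mouse bone marrow, in all groups for 6 days with the growth factor M-CSF at 10 ng/ml. Vehicle M0 and vehicle M1 cells received DMSO, and ISRIB M0 and ISRIB M1 cells received 50 nM ISRIB, in each case starting 1 h before stimulation. M1 cells of both treatments were then given LPS at 10 ng/ml with IFN-γ at 25 ng/ml for 16 h while vehicle or ISRIB stayed present. What the M0 cells were given over those hours is not in the labels. They call the libraries of a group biological replicates without naming animals or cultures, so p-values below measure the spread between these samples.

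The integrated stress response is a signalling pathway in which stress-activated kinases phosphorylate the translation initiation factor eIF2. Phosphorylated eIF2 inhibits its exchange factor eIF2B, general protein synthesis falls, and a few messages such as that of the transcription factor ATF4 are translated better. ISRIB is a small molecule that binds and stabilises eIF2B and so blunts the response. LPS, a bacterial ligand of Toll-like receptor 4, and IFN-γ together turn resting macrophages (M0) into inflammatory M1-like cells, which make interferon-induced proteins, cytokines, chemokines and nitric oxide. Under these definitions ISRIB damps the polarization of a gene when the interaction has the sign opposite to its M1 minus M0 change, and boosts it when the signs match.

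Total counts ran from 439976 to 514037 per library, and 1 count stood for 1.79 to 2.57 CPM (counts per 1e6 after TMM scaling). Between 91.2% and 93.1% of the counts matched to the annotation lay in symbols with an exon that overlaps an exon of a gene on the other strand, although such symbols were 24.2% of those matched. The libraries were strand-specific, and the strand setting used in counting is not given in the sources used here, so counts of a symbol and of its opposite-strand neighbour cannot be told apart. Of the genes tested, 1561 (66.3%) had such a neighbour, which is named below beside each gene concerned. The unknown strand setting bears on the 795 tested genes without a neighbour too, and the strand their counts came from was not tested. All 12 macrophage markers checked had counts. Marker sums are given as counts per 1e6 of the total count, without TMM scaling. The macrophage sum was 575 to 1050 in M0 and 336 to 687 in M1 libraries. The neutrophil sum did not exceed 8.59. The fibroblast and stromal sum, with counts in 1 of 7 markers, reached 26.5 in ISRIB M0 and 4.02 in vehicle M0. In M1 that sum was 0. The dendritic cell sum was 52.5 to 135 in M0 and 739 to 926 in M1 libraries, with Flt3, Zbtb46 and Cd209a at 0. In M1 it stood above the macrophage sum, and its part in the results was not tested.

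Polarization as a whole did not differ between ISRIB and vehicle beyond the spread between libraries. A fit of state alone, with 6 M0 against 6 M1 libraries and no term for treatment, called 1341 of 2356 genes (56.9%) at an adjusted p under 0.05 in edgeR's quasi-likelihood test, 699 higher in M1 (29.7%) and 642 lower in M1 (27.2%). A polarization index was then formed for each library as the mean log2 CPM of the 699 genes minus that of the 642 genes. Its values were -1.75, -1.87 and -2.05 in the 3 vehicle M0 libraries and -1.81, -1.85 and -1.87 in the ISRIB M0 libraries. In M1 it was 1.70, 1.49 and 1.59 with vehicle and 1.71, 1.63 and 1.59 with ISRIB. The treatments overlapped in both states. Every M1 library stood above every M0 library, which choosing the genes by state in these same libraries sets in advance.

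The index thus moved by 3.48 from M0 to M1 in vehicle cells and by 3.49 in ISRIB cells, a difference of 0.00537 ± 0.113 (SE, n = 3 libraries in each of 4 groups). The 95% interval of the difference, from the spread within groups with 8 residual degrees of freedom, ran from -0.26 to 0.27, or from -7.35% to 7.65% of the vehicle response. An exact two-sided permutation test, in which treatment labels were exchanged within each state over 400 arrangements, gave p = 0.97 and 0.995 after Benjamini-Hochberg adjustment over 3 index tests, where the smallest p possible was 0.005. A common damping or boosting of more than about these limits lay outside the interval, and smaller ones could not be detected with these libraries.

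**Figure D1:**
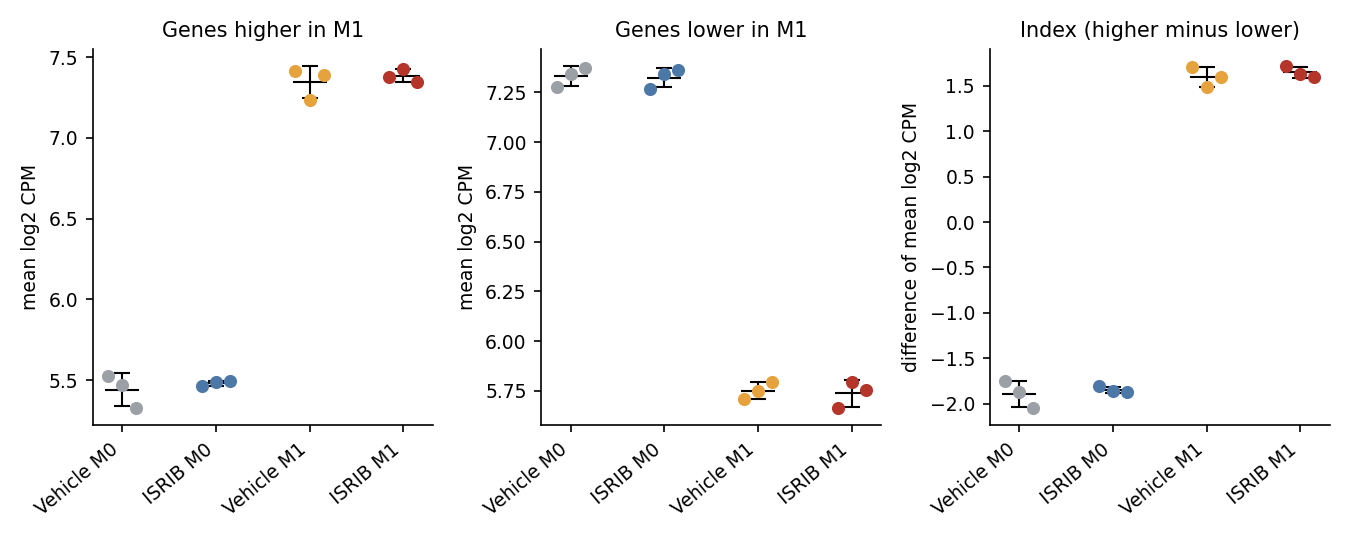
Mean log2 CPM of the 699 genes higher in M1, mean log2 CPM of the 642 genes lower in M1, and their difference (the polarization index), with a point for each library and the mean ± SD of each group of 3. The index lay between -2.05 and -1.75 in the 6 M0 libraries and between 1.49 and 1.71 in the 6 M1 libraries, with the treatments overlapping.

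Neither direction of the response stood out from the other. The genes higher in M1 rose by a mean of 1.90 on the log2 scale in both treatments, with a 95% interval of -0.20 to 0.20 for the difference (-10.3% to 10.3% of the response, exact permutation p = 0.995). The genes lower in M1 changed by a mean of -1.58 with vehicle and -1.59 with ISRIB, with an interval of -0.15 to 0.14 for the difference (-8.6% to 9.3%, exact permutation p = 0.935). Taken gene by gene, 690 of the 1341 polarized genes (51.5%) had an interaction in the damping direction and 651 in the boosting direction. The share of interactions below 0 over all tested genes was also 51.5%.

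The response was also compared over its whole range of sizes. A straight line through the interaction against the mean response of each gene had a slope of 0.000533 over all 2356 genes, equal to a 0.0533% larger response with ISRIB. Restricted to the 836 genes averaging 50 counts or more, the line gave a change of -2.16%, and restricted to the 364 averaging 200 or more, one of -2.35%. These slopes are descriptions across genes, which share the same 12 libraries.

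**Figure D2:**
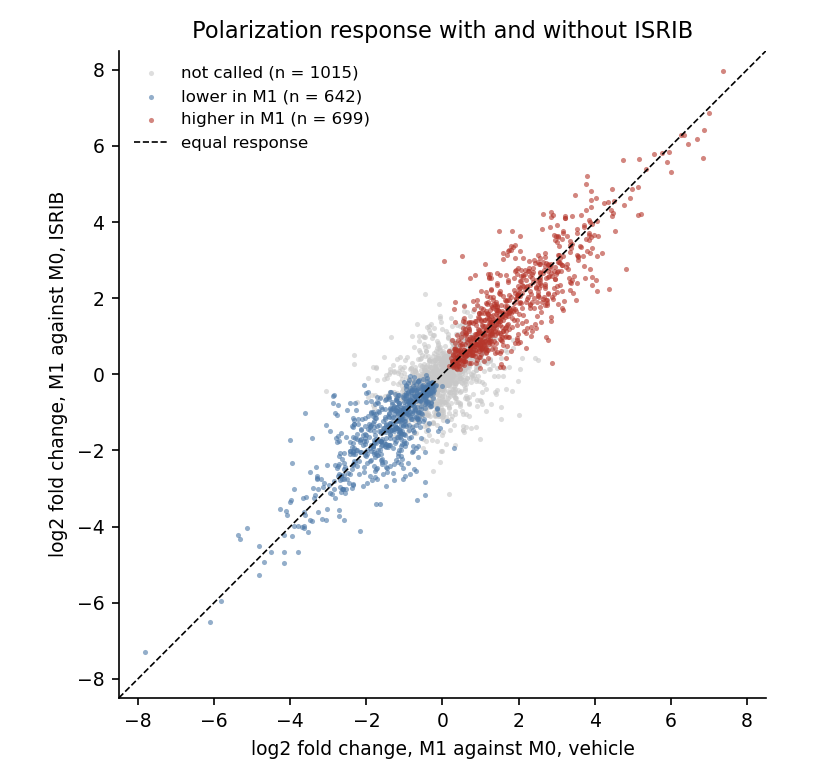
The M1 minus M0 log2 fold change of each of the 2356 tested genes in vehicle cells (x axis) and in ISRIB cells (y axis), coloured by whether the state-only fit called the gene. Genes lie along the line of equal response in both the 699 genes higher and the 642 genes lower in M1.

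No gene passed the test of the interaction. At an adjusted p under 0.05 edgeR's quasi-likelihood test called 0 of 2356 genes (0.0%), and DESeq2, limma-voom and limma on the deposited log2 values also called 0. Without a filter on low counts, when 10978 genes were fitted, edgeR called 9, all with a negative interaction: Basp1, Mrpl48, 4930539J05Rik, Mir762, Pitpna, Nisch, Gbp7, Gabpa (opposite Atp5j) and 2610206C17Rik (opposite Zfand6). At an unadjusted p under 0.05 there were 167 genes (7.09%), 71 with a positive (3.01%) and 96 with a negative (4.07%) interaction. Of the 1341 polarized genes 108 (8.05%) reached that unadjusted level, near the share over all genes, and 61 of them were in the damping and 47 in the boosting direction.

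The genes were next divided by expression. With the mean count per library the median standard error of the interaction fell from 1.36 in genes under 10 counts to 0.15 in genes with at least 1000, so that the highly counted genes bound the interaction most tightly. Among genes higher in M1 the median interaction was -0.01 in the 49 genes with at least 1000 counts, -0.08 in the 102 genes with 200 to 1000 and -0.05 in the 136 genes with 50 to 200. The share in the damping direction was 53.1%, 60.8% and 58.1% in these classes. In the lower classes of the same genes it went from 44.2% (under 10 counts) to 55.2% (10 to 20) and 47.5% (20 to 50), with no steady course.

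Genes lower in M1 showed medians of the same small size. The median interaction was -0.04 in the 21 genes with at least 1000 counts, 0.02 in the 105 genes with 200 to 1000 and 0.00457 in the 180 genes with 50 to 200, and 42.9%, 52.4% and 50.0% of them were in the damping direction. By the size of the state change, the 38 genes higher in M1 by at least 4 on the log2 scale had a median response of 4.96 with vehicle and 4.90 with ISRIB, and 52.6% of them were in the damping direction. The 15 genes lower by at least 4 had a median response of -4.81 with vehicle and -4.66 with ISRIB, and 33.3% of them, 5 genes, were in the damping direction.

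**Figure D3:**
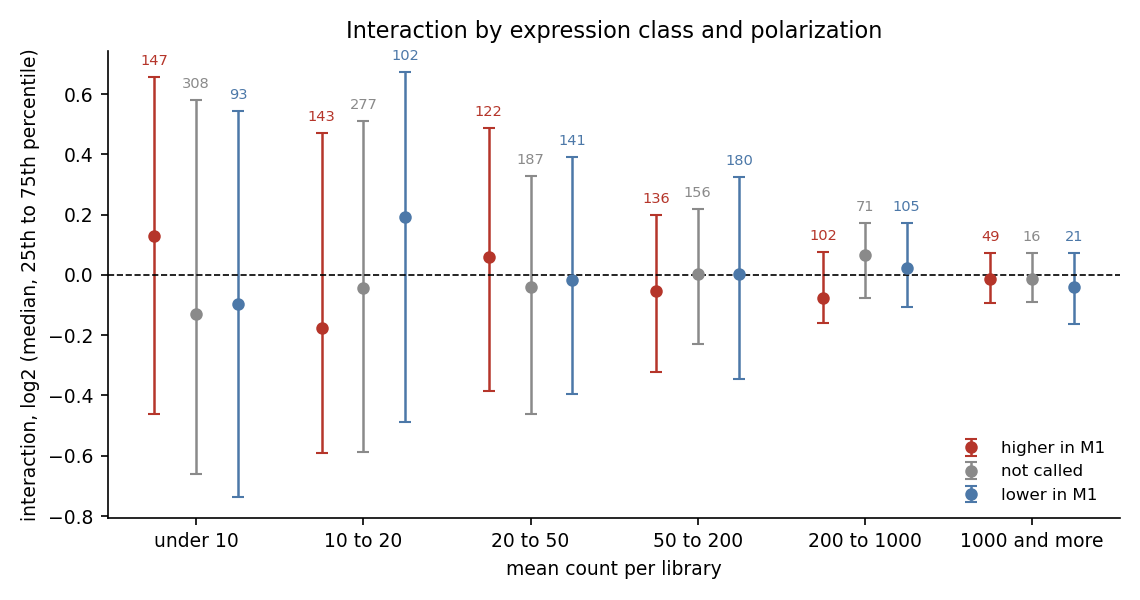
Median interaction (points) with the 25th and 75th percentiles (bars) in 6 classes of mean count per library, for genes higher in M1, lower in M1 and not called, with the number of genes above each bar. The bars narrow as counts rise, and the medians stay between -0.18 and 0.19 in all 18 classes.

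Genes with and without an opposite-strand neighbour leaned in different directions, each by a small amount. Among the genes higher in M1, the 419 with a neighbour had a median interaction of -0.06, with 57.0% in the damping direction, and the 280 without one had 0.07, with 46.4%. Among the genes lower in M1 the shares were 51.7% of 474 and 45.2% of 168. The index formed from genes with a neighbour alone gave an interaction of -0.07 (exact permutation p = 0.36), and the one from genes without gave 0.17 (exact permutation p = 0.435). Of the latter, the genes higher in M1 contributed 0.07 (exact permutation p = 0.625) and the genes lower in M1 -0.11 (exact permutation p = 0.165). None differed from 0 beyond the spread.

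The share in the damping direction depended on how the polarized genes were chosen. Genes called in vehicle cells alone numbered 1055, and 642 of these (60.9%) were in the damping direction. The genes called in ISRIB cells alone also numbered 1055, and 424 of them (40.2%) were in the damping direction. A gene whose response is overestimated by chance in 1 treatment enters that treatment's list more easily, so both shares are set in part by the choice of genes, and the state-only fit used above does not see the treatment. The median interaction of genes higher in M1 accordingly went from -0.12 with the vehicle list to 0.07 with the ISRIB list, around -0.04 with the state-only list. The state-only list has a limit of its own. Its fit averages over the treatments, so genes with opposite responses in them can go uncalled, as Marcks, Pitpna and Mrpl48 did. At an unadjusted interaction p under 0.05 in edgeR, 43 of 96 negative and 16 of 71 positive genes were not called, beside 1015 of all 2356.

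The genes with the largest rises in M1 rose in both treatments, which their choice by the state-only fit over both treatments favours. Ghdc had 0 to 7.41 CPM in the 6 M0 libraries. It reached 1322, 1234 and 1430 CPM in vehicle M1 and 1372, 1244 and 1515 CPM in ISRIB M1, and the treatments overlapped in both states. Ifit2, an interferon-induced antiviral protein, had 0 to 12.5 CPM in M0, 646, 445 and 596 CPM in vehicle M1 and 702, 678 and 663 CPM in ISRIB M1. The ISRIB M1 libraries stood above the vehicle ones here, and the interaction was -0.50 ± 1.03 (SE, adjusted p = 0.789 in edgeR). Rsad2, the antiviral enzyme viperin, was without a count in vehicle M0 and had 0, 0 and 4 in ISRIB M0, against 496, 198 and 327 CPM in vehicle M1 and 737, 489 and 368 CPM in ISRIB M1, which overlapped.

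The symbols Mir6381 and Phrf1 carried counts in loci whose opposite strand holds genes of the interferon response. Mir6381 lies opposite Gbp2, an interferon-induced GTPase, at chr3:142623860-142623946 of the mouse build GRCm38. It held 36490 ± 3611 CPM in vehicle M1 and 34040 ± 2920 CPM in ISRIB M1 (SD, n = 3), with 251 to 491 CPM in M0, and its interaction was -0.45 ± 0.22 (SE, unadjusted p = 0.0473, adjusted p = 0.684 in edgeR). Phrf1 lies opposite Irf7, a transcription factor of the interferon response, and held 626 ± 104 CPM in vehicle M1 and 646 ± 159 CPM in ISRIB M1.

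Among the genes that M1 cells lost, Cd163, a scavenger receptor of resting macrophages, had 2781, 2663 and 3031 CPM in vehicle M0 and 3394, 3204 and 4386 CPM in ISRIB M0. It kept 2.50, 2.57 and 19.2 CPM in vehicle M1 and 25.0, 6.74 and 25.8 CPM in ISRIB M1. The ISRIB M0 libraries all stood above the vehicle M0 libraries, the M1 libraries overlapped, and the interaction was 0.51 ± 0.60 (SE, adjusted p = 0.847 in edgeR). Prune2 had 636 ± 168 CPM in vehicle M0 and 1110 ± 163 CPM in ISRIB M0, with 0 to 6 counts in each M1 library. Nat8l, which makes N-acetylaspartate, had 67, 111 and 118 counts in vehicle M0 and 83, 193 and 119 counts in ISRIB M0, with 0 to 2 counts in each M1 library. The symbol Ccdc127, opposite Lrrc14b, had 330 ± 171 and 258 ± 84.3 CPM in M0 and at most 2 counts in an M1 library. The symbol 9130019P16Rik, opposite Chn2, had 412 ± 19.1 CPM in vehicle M0 and 396 ± 51.8 CPM in ISRIB M0. Its M1 libraries held 5, 1 and 1 counts with vehicle and 8, 6 and 8 counts with ISRIB, and the interaction was 1.15 ± 0.59 (SE, adjusted p = 0.505 in edgeR).

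Gene functions were followed in 23 lists with 846 symbols, of which 240 were tested and 22 lists had at least 3 tested members. The median interaction was above 0 in 12 of these and below 0 in 10, and the median over all tested genes was -0.02. In 10 of the 22 lists the sign of the median changed when 1 library was left out and the low-count filter was rerun. The genes tested could change with the filter, so leave-one-out values here and below are not for a fixed set of genes. The highest median, 0.46 for the enzymes of nitric oxide, arginine and prostaglandins, was 0.00448 without vehicle M1 replicate 2. That list includes Nos2, which had no M0 counts, and its 2 members above 3 counts in a library of each state had a median of -0.02. No list member passed the adjusted test. At an unadjusted p under 0.05 there were 20 of the 240 (8.33%), 12 negative and 8 positive, beside 7.09% of all tested genes. These values are of the listed symbols themselves. Tested genes opposite a listed symbol could have other medians. These were -0.07 in 8 genes for the tricarboxylic acid cycle and respiratory chain, -0.16 in 4 for the cytoskeleton and -0.02 in 5 for the cytokines. For oxidative stress it was -0.14 in 4, and for antigen presentation -0.19 in 6. Resting macrophage genes gave 0.30 in 3 and cholesterol and lipid metabolism 0.51 in 5.

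**Figure D4:**
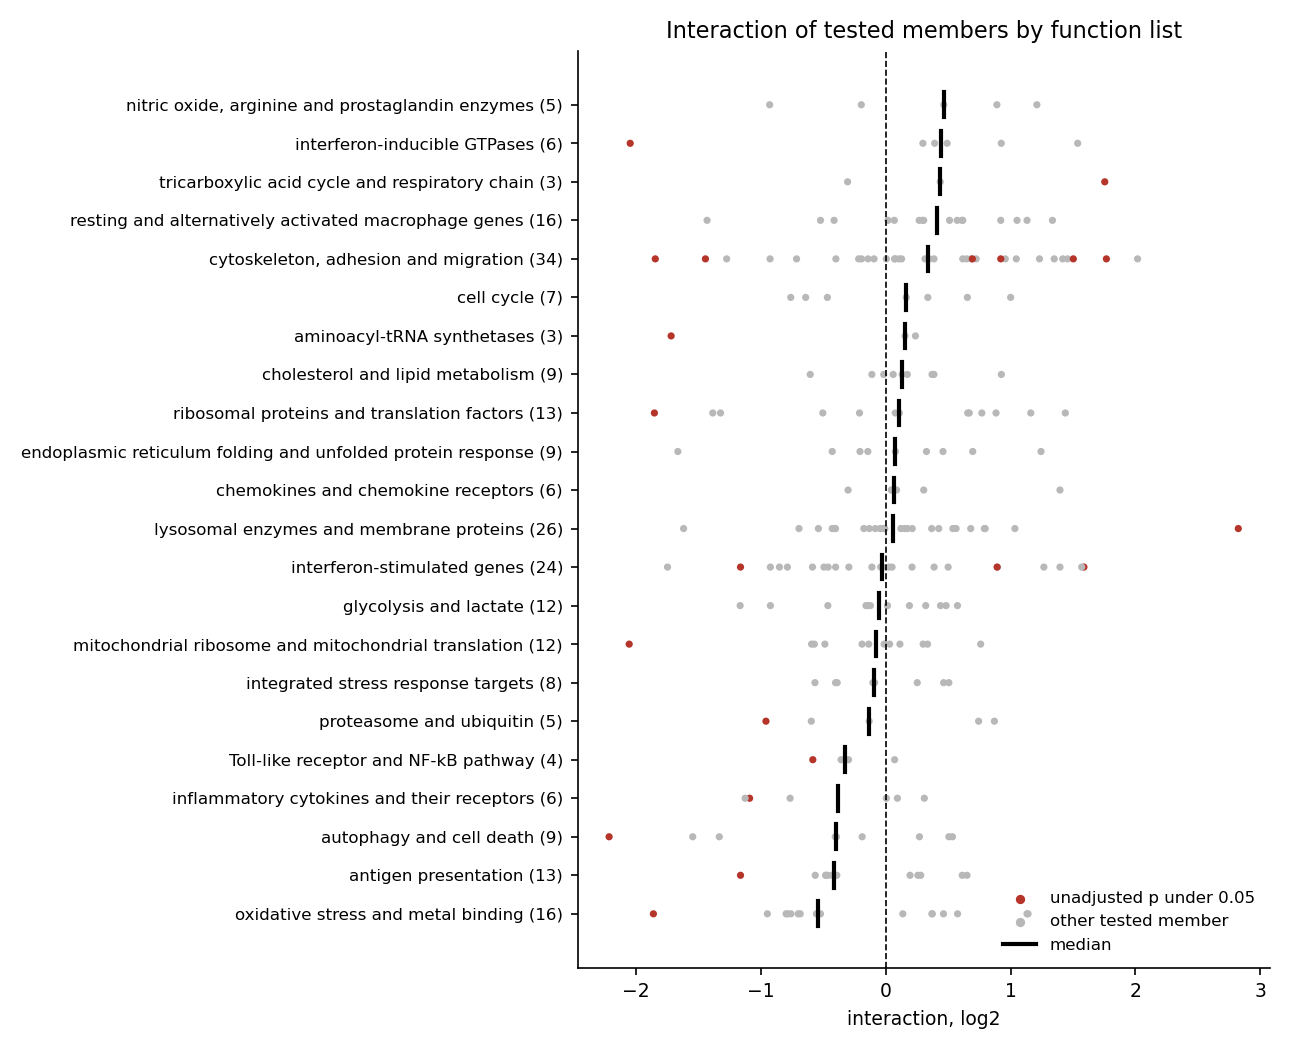
Interaction of each tested member (points) and the median (bars) in the 22 function lists with at least 3 tested members, ordered by median, with the number tested in brackets. Medians run from -0.54 (oxidative stress and metal binding) to 0.46 (nitric oxide, arginine and prostaglandin enzymes), and members spread over both sides of 0 in every list.

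The interferon-induced antiviral genes were higher in M1 in both treatments. Of 40 listed, 24 were tested, 22 of these were called higher in M1 by the state-only fit, and their median M1 minus M0 change was 3.36 with vehicle and 3.39 with ISRIB. The median interaction was -0.03, with 13 of 24 below 0, and it ranged from -0.23 without ISRIB M1 replicate 2 to 0.23 without ISRIB M0 replicate 3. The 12 members above 3 counts in a library of each state had a median interaction of -0.29. The mean log2 CPM of the list was 2.69, 2.80 and 2.48 in vehicle M0 and 2.71, 2.86 and 2.95 in ISRIB M0, and in M1 it was 6.39, 5.71 and 6.11 with vehicle and 6.21, 6.64 and 6.21 with ISRIB. The treatments overlapped in both states. Members with an unadjusted p under 0.05 in edgeR lay on both sides of 0. Among them were Tap1, the peptide transporter of antigen presentation, which lies opposite Psmb9 (-1.17, adjusted p = 0.505), and Bst2, the surface protein tetherin (1.59, adjusted p = 0.646).

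For Tap1 the treatments differed in a few M0 counts. Its M1 level was 839, 756 and 721 CPM with vehicle and 767, 721 and 618 CPM with ISRIB, and its M0 counts were 0, 3 and 1 with vehicle and 1, 6 and 8 with ISRIB. Both states overlapped between treatments. Bst2 had 0, 6 and 0 counts in vehicle M0 and none in ISRIB M0, against 4 to 18 counts in the 6 M1 libraries. The ISRIB effect on Bst2 was -0.89 in M0 and 0.69 in M1, and that on Tap1 was 1.03 in M0 and -0.14 in M1.

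Of 17 interferon-inducible GTPases, which attack vacuoles that hold pathogens, 6 were tested, all higher in M1. Their median interaction was 0.44, with a median standard error of 1.18. The 3 members above 3 counts in a library of each state had a median of 0.30. Of the 6, 5 were above 0, and Gbp7 was the single one below 0. Gbp7 was without a count in the 3 vehicle M0 libraries and had 11, 1 and 9 counts in ISRIB M0. In M1 it had 60, 45 and 34 counts with vehicle and 38, 46 and 66 counts with ISRIB, so that the treatments overlapped in M1 and not in M0. The vehicle M1 level was at least 20.4-fold higher than 3 counts per library in vehicle M0. The interaction had an unadjusted p of 0.000407 and an adjusted p of 0.192 in edgeR, and 0.0468 without ISRIB M0 replicate 2.

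The promoters of 3 genes are shown: Gbp7, the GTPase above, Cxcl10, an interferon-induced chemokine whose M1 level stood higher with ISRIB, and Atf3, a stress-response gene described below. They are the 250 bases before the start of the gene, from RefSeq on GRCm38.p6, read 5′ to 3′ on the strand of the gene. Capitals mark matches on either strand to the interferon-stimulated response element (GAAA, any 2 bases, GAAA) or the gamma-activated site (TTCNNNGAA) in Gbp7 and Cxcl10, and to the C/EBP-ATF response element (TGATGNAAN) in Atf3. The Gbp7 window is chr3:142530086-142530335 on the plus strand, that of Cxcl10 is chr5:92348890-92349139 on the minus strand and that of Atf3 is chr1:191183334-191183583 on the minus strand.
Gbp7: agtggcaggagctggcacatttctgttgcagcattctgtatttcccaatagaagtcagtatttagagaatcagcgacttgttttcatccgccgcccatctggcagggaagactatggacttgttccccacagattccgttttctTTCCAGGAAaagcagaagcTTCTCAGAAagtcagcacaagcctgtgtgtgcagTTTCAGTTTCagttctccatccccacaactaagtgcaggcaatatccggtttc
Cxcl10: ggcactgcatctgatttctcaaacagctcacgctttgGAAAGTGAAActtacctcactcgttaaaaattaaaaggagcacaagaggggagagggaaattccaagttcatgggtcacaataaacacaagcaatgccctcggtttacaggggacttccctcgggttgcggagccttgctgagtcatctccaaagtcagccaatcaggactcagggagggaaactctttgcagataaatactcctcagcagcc
Atf3: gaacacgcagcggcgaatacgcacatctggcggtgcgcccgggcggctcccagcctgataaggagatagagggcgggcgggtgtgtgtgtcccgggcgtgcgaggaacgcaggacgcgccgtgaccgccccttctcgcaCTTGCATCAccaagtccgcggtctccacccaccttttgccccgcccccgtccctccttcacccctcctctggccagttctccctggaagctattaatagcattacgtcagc

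A match is a description of the letters in the window. The interferon-stimulated response element was in the 300-base window of 3.99% of 27025 genes and of 9.52% of the 525 genes higher in M1 that had a promoter in the table. Among those 525 genes the median interaction was -0.05 in the 50 with a match and -0.01 in the others. The gamma-activated site was in 9.55% of all promoters and 9.9% of the genes higher in M1, with a median interaction of 0.01 in the 52 with a match. The C/EBP-ATF response element was in 4.5% of all promoters and in 2.88% of the 1843 tested genes with a promoter, where the 53 with a match had a median interaction of -0.04 and the others of -0.02.

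The chemokines and cytokines could be followed in part. In each of these lists 6 members were tested, with a median interaction of 0.07 for the chemokines and their receptors (5 of 6 above 0) and -0.38 for the inflammatory cytokines and their receptors. Some of these members were at 3 counts or fewer in all M0 or all M1 libraries: without them the medians were -0.11 in 2 chemokine genes and -0.93 in 4 cytokine genes. The cytokine median ranged from -0.67 without vehicle M0 replicate 3 to -0.10 without vehicle M0 replicate 1. Cxcl10, which recruits T cells and lies opposite Art3, had no counts in the 6 M0 libraries and 22, 14 and 31 counts in vehicle M1, or 55.2 ± 19.3 CPM (SD, n = 3). It had 62, 74 and 58 counts in ISRIB M1, or 152 ± 15.3 CPM, so that all 3 ISRIB libraries stood above all 3 vehicle libraries (adjusted p = 0.806 in edgeR for that difference). Against 3 counts per library the M1 level was at least 9.74-fold higher than M0 with vehicle and at least 26.4-fold higher with ISRIB. Cxcl9, a related chemokine, also had no counts in M0 and had 281, 201 and 197 CPM in vehicle M1 and 230, 242 and 230 CPM in ISRIB M1, where the treatments overlapped.

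The interaction of a gene that is silent in both M0 groups cannot be estimated on a ratio scale. This was the case for 40 tested genes with no count in either M0 group, Cxcl10, Cxcl9 and Nos2 among them, and 6 with no count in either M1 group, and all 46 had an interaction p above 0.99. For each of these genes only the levels in the state with counts can be compared. Nos2, which makes nitric oxide, had 50.1, 30.8 and 91.3 CPM in vehicle M1 and 25.0, 67.4 and 56.2 CPM in ISRIB M1. The 2 treatments overlapped.

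Il1b, the cytokine interleukin 1 beta, lies opposite Il1bos. It had 41.3 ± 9.21 CPM in vehicle M1 and 55.7 ± 2.34 CPM in ISRIB M1 (SD, n = 3) with at most 2 counts in any M0 library, and an interaction of 0.09 ± 1.21 (SE) whose sign changed between tools. Tnfrsf1b, a receptor of tumour necrosis factor, had 11.1, 16.1 and 30.4 CPM in vehicle M0 and 35.4, 43.7 and 61.8 CPM in ISRIB M0, without overlap, and 112 ± 25.2 and 116 ± 31.6 CPM in M1. Its interaction was -1.09 ± 0.58 (SE, unadjusted p = 0.0408, adjusted p = 0.684 in edgeR). Tnf itself was not tested. It had no counts in M0, 1, 2 and 2 counts in vehicle M1 and 2, 8 and 10 counts in ISRIB M1.

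In the Toll-like receptor and NF-kB pathway 4 of 38 members were tested, all higher in M1, with a median interaction of -0.33, which was 0.08 without ISRIB M0 replicate 2. Nfkb2, a subunit of the NF-kB transcription factors that lies opposite AC114539.1 and Psd, had 228, 254 and 201 CPM in vehicle M0 and 322, 302 and 270 CPM in ISRIB M0, which did not overlap. In M1 it had 456, 434 and 370 CPM with vehicle and 370, 438 and 283 CPM with ISRIB, which overlapped. The interaction was -0.59 ± 0.27 (SE, unadjusted p = 0.0376, adjusted p = 0.684 in edgeR). Antigen presentation genes, the class I molecules and the machinery that loads peptides on them, gave a median of -0.41 in 13 tested, with 8 below 0, and of -0.10 without vehicle M0 replicate 3.

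Few targets of the integrated stress response could be tested, and most of those were not called by the state-only fit. Of 40 listed targets, 8 were tested, of which that fit called 2 higher and 1 lower in M1, where it called 56.9% of all tested genes. For the interaction 0 had an unadjusted p under 0.05 in edgeR, with a median standard error of 0.91. Their median M1 minus M0 change was 0.10 with vehicle and 0.55 with ISRIB, and their median interaction was -0.10, with values from -0.57 to 0.50. The mean log2 CPM of the list ranged from 5.08 to 5.73 in vehicle M0, 5.27 to 5.68 in vehicle M1, 5.30 to 5.75 in ISRIB M0 and 5.29 to 5.91 in ISRIB M1. The 4 groups overlapped.

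Ddit3, the stress-induced transcription factor CHOP, had 109, 85.9 and 77.0 CPM in vehicle M0, 102, 94.6 and 67.4 CPM in ISRIB M0, 110, 69.4 and 69.7 CPM in vehicle M1 and 65.0, 76.3 and 82.0 CPM in ISRIB M1. It lies opposite Mars. All 4 groups overlapped, and the interaction was -0.10 ± 0.47 (SE, adjusted p = 0.988 in edgeR). Atf3, a related stress-induced factor, was called higher in M1, with 57.8 ± 16.8 CPM in vehicle M1 and 47.2 ± 21.2 CPM in ISRIB M1 (SD, n = 3) and 2.03 to 23.7 CPM in M0. Its interaction was -0.57 ± 0.87 (SE). Atf4 was not tested, with 0 to 8 counts per library.

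The other lists of protein synthesis and folding had medians on both sides of 0. The median interaction was 0.11 in 13 ribosomal proteins and translation factors, -0.08 in 12 genes of the mitochondrial ribosome, 0.08 in 9 genes of endoplasmic reticulum folding and 0.15 in 3 aminoacyl-tRNA synthetases. Of the eIF2, eIF2B and eIF2 kinase genes 2 were tested, Eif2ak2, the kinase activated by double-stranded RNA, opposite Gm26637 (-0.11 ± 0.53, SE), and Ppp1r15b, which directs dephosphorylation of eIF2, opposite Gm26616 (0.46 ± 0.93). Eif5, a translation factor that works with eIF2, had 0 counts in vehicle M0 and 2, 12 and 8 counts in ISRIB M0, against 2 to 20 counts in the 6 M1 libraries (unadjusted p = 0.00623, adjusted p = 0.434 in edgeR). Yars, the tyrosyl-tRNA synthetase, which lies opposite C77080, had 7 to 21 counts in the 6 M0 libraries, 8, 0 and 2 in M1 with vehicle and none in M1 with ISRIB (adjusted p = 0.54 in edgeR).

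In metabolism and the lysosome, the median interaction was -0.06 in 12 genes of glycolysis, 0.06 in 26 lysosomal genes with 13 on each side of 0, 0.13 in 9 genes of cholesterol and lipid metabolism and 0.44 in 3 genes of the tricarboxylic acid cycle and respiratory chain. The last of these ranged from 0.10 without vehicle M0 replicate 1 to 0.94 without vehicle M0 replicate 3. Atp6v1a, a subunit of the proton pump that acidifies lysosomes, was the lysosomal gene with an unadjusted p under 0.05 in edgeR (2.82 ± 1.82, SE, adjusted p = 0.595). It had 9, 22 and 10 counts in vehicle M0, 0, 0 and 12 in ISRIB M0, 2, 0 and 0 in M1 with vehicle and 2, 8 and 6 in M1 with ISRIB, and both states overlapped. Atp5b, a subunit of the mitochondrial ATP synthase, gave 1.75 ± 1.08 (SE, adjusted p = 0.642 in edgeR) from 1 to 25 counts per library.

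Oxidative stress and metal-binding genes had the lowest median of the 22 lists, -0.54 in 16 tested. It ranged from -0.76 to -0.17 when each library was left out in turn. Of the members 9 (56.2%) were below 0, beside 51.5% of all tested genes. Keap1, the inhibitor of the antioxidant factor NRF2, which lies opposite Gm16754, was the single member of that list with an unadjusted p under 0.05. It had 0 counts in vehicle M0, 4, 0 and 2 in ISRIB M0, 19, 20 and 42 in M1 with vehicle and 8, 27 and 8 in M1 with ISRIB. Autophagy and cell death genes had a median of -0.40 in 9 tested, and of -0.07 without ISRIB M1 replicate 2. Among them Atg13, which starts autophagosome formation, gave -2.22 ± 1.55 (SE, adjusted p = 0.684 in edgeR) from 0 to 18 counts per library. Proteasome and ubiquitin genes had a median of -0.13 in 5 tested, and of -0.87 without vehicle M0 replicate 2. Of these Herc6, a ubiquitin ligase, had no counts in vehicle M0, 0, 2 and 6 in ISRIB M0 and 8 to 26 in the 6 M1 libraries (adjusted p = 0.602 in edgeR).

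Resting and alternatively activated macrophage genes leaned above 0, with a median interaction of 0.41 in 16 tested and 13 above 0, and none had an unadjusted p under 0.05 in edgeR. Their median M1 minus M0 change was -0.84 with vehicle and -0.68 with ISRIB, and 8 of the 13 members that were polarized were in the damping direction. The mean log2 CPM of the list was 5.75, 5.51 and 5.35 in vehicle M0, 5.35, 5.34 and 5.54 in ISRIB M0, and in M1 4.48, 4.27 and 4.98 with vehicle and 4.89, 4.71 and 4.97 with ISRIB. The treatments overlapped in both states, and leaving out single libraries moved the median between 0.12 and 0.68. C1qc, a chain of the first complement component, had the lowest unadjusted p of the list, 0.0907, with an interaction of 1.05 ± 0.65 (SE).

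Cytoskeleton, adhesion and migration genes were the list with the most tested members, 34. Of these 6 (17.6%) had an unadjusted p under 0.05, beside 7.09% of all tested genes, 4 positive and 2 negative, and none passed the adjusted test of edgeR. Their median interaction was 0.34, with 24 of 34 above 0. The mean log2 CPM of the list was 4.76, 4.54 and 4.04 in vehicle M0 and 4.31, 4.16 and 4.44 in ISRIB M0, and in M1 it was 5.73, 5.22 and 5.84 with vehicle and 5.74, 5.89 and 5.76 with ISRIB, so the treatments overlapped in both states. The members on the positive side were mostly thinly counted: among members that averaged 50 counts or more the median of the list was -0.23. Cfl1, which severs actin filaments and lies opposite Snx32, had a positive interaction of 1.77 ± 0.88 (SE, mean 14.8 counts), and Tmsb4x, which binds actin monomers, one of 0.92 ± 0.45 (SE, mean 84.8 counts).

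The 2 negative members of that list, Basp1 and Marcks, encode related proteins that bind the inner face of the plasma membrane and the actin below it. Basp1 had 289, 446 and 266 CPM in vehicle M0 and 352, 908 and 584 CPM in ISRIB M0. In M1 it had 2006, 2542 and 2740 CPM with vehicle and 1802, 2005 and 1094 CPM with ISRIB. The treatments overlapped in M0, and in M1 every ISRIB library was below every vehicle library, with the nearest pair at 2005 and 2006 CPM. Its M1 minus M0 change was 2.85 with vehicle and 1.40 with ISRIB, an interaction of -1.45 ± 0.34 (SE) with an unadjusted p of 0.000265 and an adjusted p of 0.183 in edgeR. Without ISRIB M0 replicate 2 the interaction was -1.06, and without ISRIB M0 replicate 1 it was -1.74 with an adjusted p of 0.00523.

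Marcks had 7, 26 and 13 counts in vehicle M0 and 32, 54 and 51 in ISRIB M0, without overlap. In M1 it had 80.1, 92.5 and 81.7 CPM with vehicle and 85.0, 49.4 and 58.6 CPM with ISRIB, which overlapped. Its interaction was -1.85 ± 0.59 (SE, unadjusted p = 0.00244, adjusted p = 0.302 in edgeR). Marcksl1, the remaining related gene tested, had an interaction of -0.09 ± 1.30 (SE) from a few counts per library.

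Of the other genes with the lowest p on the negative side, several had higher mean M0 levels with ISRIB. Mrpl48, which encodes a protein of the mitochondrial ribosome and lies opposite the vesicle transport gene Rab6a, had 66.7, 131 and 116 CPM in vehicle M0 and 110, 451 and 236 CPM in ISRIB M0, which overlapped. It had 165, 262 and 341 CPM in vehicle M1 and 103, 242 and 110 CPM in ISRIB M1. Its interaction was -2.06 ± 0.55 (SE, adjusted p = 0.211 in edgeR). It was -1.46 without ISRIB M0 replicate 2, and -2.44 without ISRIB M0 replicate 1, where its adjusted p in edgeR was 0.02. Pitpna, a lipid transfer protein, gave -2.10 ± 0.56 (SE, adjusted p = 0.211 in edgeR, and 0.0302 without ISRIB M0 replicate 1) with 14, 36 and 37 counts in vehicle M0, 34, 115 and 80 in ISRIB M0, and M1 libraries that did not overlap, at 95.2 to 173 CPM with vehicle and 67.5 to 78.6 CPM with ISRIB.

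The symbol Mir762, opposite Bcl7c, had 70.4, 113 and 118 CPM in vehicle M0 and 135, 409 and 133 CPM in ISRIB M0, and 82.6, 141 and 151 CPM in vehicle M1 against 72.5, 51.6 and 44.5 CPM in ISRIB M1. Neither state overlapped, and the interaction was -2.25 ± 0.55 (SE, adjusted p = 0.183 in edgeR). It was -1.52 without ISRIB M0 replicate 2, and -2.52 without ISRIB M0 replicate 1, where its adjusted p in edgeR was 0.0302. The antisense symbol 4930539J05Rik lies opposite Ube2d3, a ubiquitin-conjugating enzyme. It had 268 ± 97.7 CPM in vehicle M0 and 512 ± 120 CPM in ISRIB M0, without overlap, and 810 ± 253 and 588 ± 188 CPM in M1, with overlap (SD, n = 3).

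Nisch and Vgll4 completed the negative genes and rested on groups with no counts. Nisch, a protein of endosomes that binds integrins, had 0 counts in vehicle M0 and 6, 6 and 15 in ISRIB M0, with 83.4 ± 28.3 CPM in vehicle M1 and 97.6 ± 44.3 CPM in ISRIB M1. Vgll4, a cofactor of TEAD transcription factors, had 70.4, 78.7 and 83.1 CPM in vehicle M0 and 97.8, 49.1 and 63.7 CPM in ISRIB M0. It had 1, 6 and 10 counts in vehicle M1 and none in ISRIB M1, where its level was at least 9.90-fold lower than in ISRIB M0.

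The genes with the lowest p on the positive side were mostly lower in M1, and fell less with ISRIB. Tmco1, a channel protein of the endoplasmic reticulum, had 135, 96.6 and 118 CPM in vehicle M0 and 99.8, 83.7 and 122 CPM in ISRIB M0, which overlapped. In M1 it had 0, 2 and 2 counts with vehicle and 7, 6 and 22 counts with ISRIB, without overlap (unadjusted p = 0.00102, adjusted p = 0.211 in edgeR). Lyz2, the lysozyme of macrophages, had 526 ± 114 CPM in vehicle M0 and 404 ± 95.1 CPM in ISRIB M0, and 105, 97.7 and 125 CPM in vehicle M1 against 168, 238 and 124 CPM in ISRIB M1. Its interaction was 1.05 ± 0.34 (SE, adjusted p = 0.425 in edgeR), and the treatments overlapped in both states.

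Better counted genes of this kind changed less. Zeb2os, antisense to the transcription factor gene Zeb2, had 2203 ± 133 CPM in vehicle M0 and 2047 ± 128 CPM in ISRIB M0, and 949 ± 119 CPM in vehicle M1 and 1273 ± 233 CPM in ISRIB M1 (SD, n = 3). Its M1 minus M0 change was -1.21 with vehicle and -0.68 with ISRIB, an interaction of 0.53 ± 0.19 (SE, adjusted p = 0.476 in edgeR). Ccpg1, a receptor for autophagy of the endoplasmic reticulum that lies opposite Pigb, changed by -0.90 with vehicle and -0.24 with ISRIB. Its M1 libraries held 423, 355 and 406 CPM with vehicle and 470, 575 and 578 CPM with ISRIB, without overlap (adjusted p = 0.434 in edgeR for the interaction).

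Dedd, opposite Nit1, and 4930414N06Rik, opposite Slf2, had interactions of 0.66 ± 0.24 and 0.67 ± 0.24 (SE). For Dedd the M0 libraries did not overlap, with 788 ± 41.7 CPM with vehicle and 590 ± 43.0 CPM with ISRIB, and for 4930414N06Rik the M1 libraries did not, with 294 ± 29.5 and 404 ± 53.6 CPM (SD, n = 3). Exosc9, a subunit of the RNA exosome opposite Ccna2, fell to 4, 0 and 2 counts in M1 with vehicle and 8, 6 and 10 with ISRIB. Kif1b, a kinesin motor, was the member of this group that was higher in M1, with 6, 4 and 0 counts in vehicle M0, none in ISRIB M0, and 113 ± 44.8 and 108 ± 6.87 CPM in M1.

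**Figure D5:**
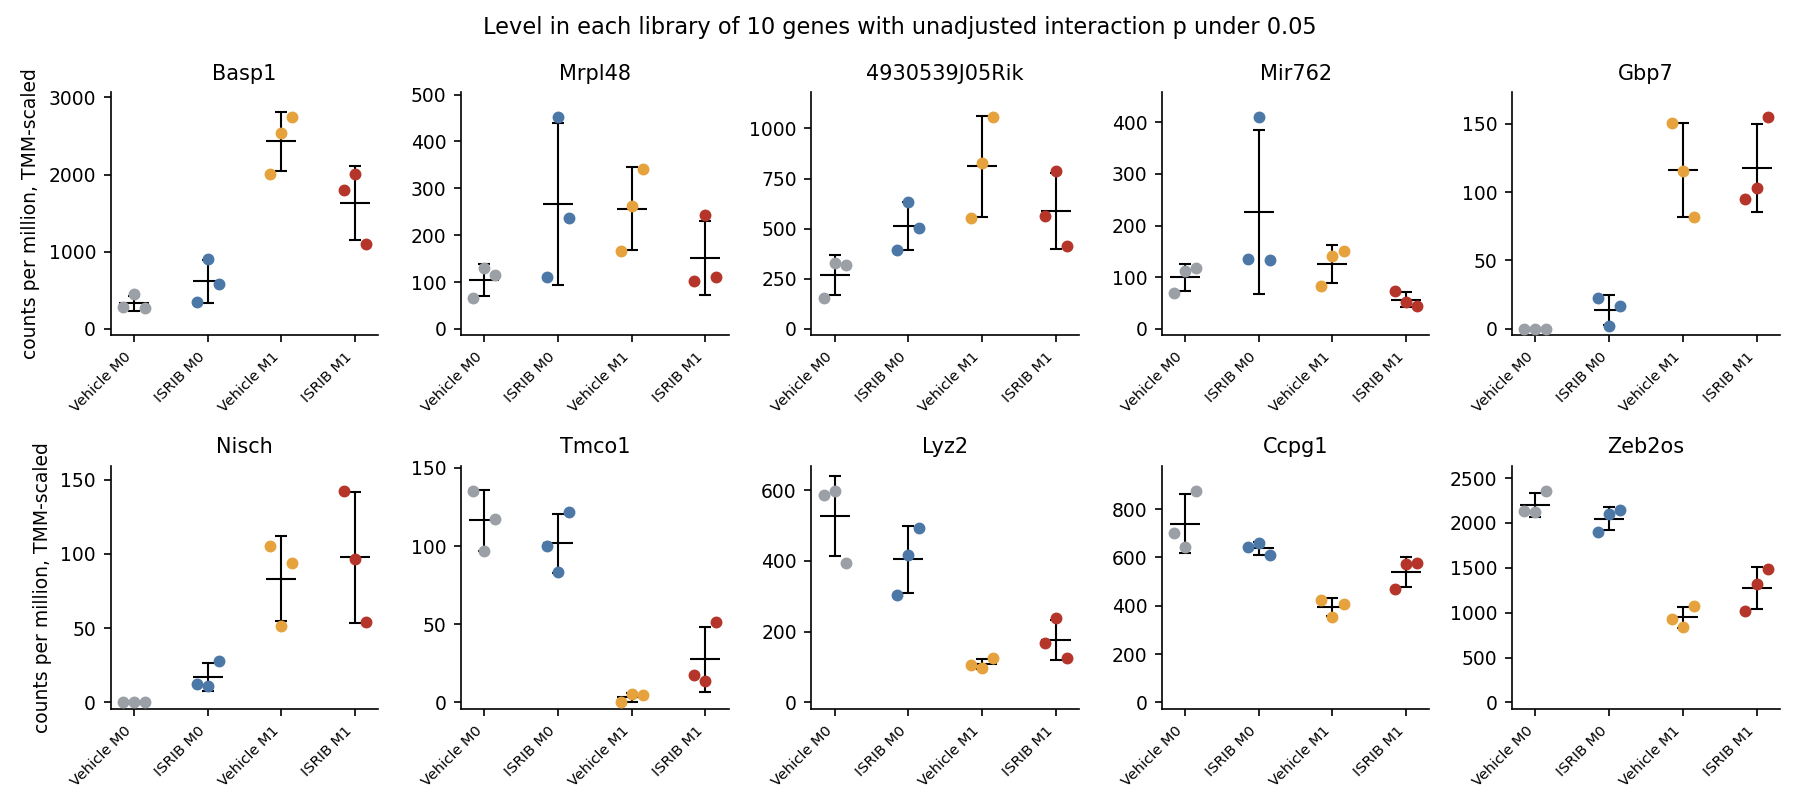
Level in CPM (TMM-scaled) of 10 genes in each library, with the mean ± SD of each group of 3, for 6 genes with a negative interaction (Basp1 to Nisch) and 4 with a positive one (Tmco1 to Zeb2os). In Mrpl48 and Mir762 a single ISRIB M0 library, at 451 and 409 CPM, stands well above the other 2 of its group.

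Across the 96 genes with a negative interaction at an unadjusted p under 0.05, the ISRIB effect was larger in size in M0 than in M1 in 59 (61.5%), beside 47.9% of all tested genes. Its median was 0.81 in M0 and -0.54 in M1. Across the 71 positive genes it was larger in M0 in 30 (42.3%), with medians of -0.52 in M0 and 0.60 in M1. In 81 of the 96 and 63 of the 71 the ISRIB effects of the 2 states had opposite signs, which the sign and size of the interaction in part fix.

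Among the M0 libraries, 1 took part in the negative genes more than the others. ISRIB M0 replicate 2 was the highest of the 6 M0 libraries in 54 of the 96 (56.2%), ISRIB M0 replicate 1 in 17 and ISRIB M0 replicate 3 in 19. Over all tested genes replicate 2 was the highest in 18.8%, but choosing genes by a negative interaction favours all ISRIB M0 libraries. The nearer comparison is with replicates 1 and 3 of the same group, at 17 and 19 genes. Among the M1 libraries, vehicle M1 replicate 3 was the highest in 41 of the 96 (42.7%), and replicates 1 and 2 of its group in 26 and 19. Without ISRIB M0 replicate 2, and with the filter rerun, 169 of 2617 genes had an unadjusted p under 0.05. Of these 1 gene, Gbp7, passed the adjusted test of edgeR (adjusted p = 0.0468). In the index, ISRIB M0 replicate 2 lay at -1.85, between the other 2 of its group.

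Groups without a count were also common among these genes. Of the 167 genes, 36 had a group with no count, against 139 of all 2356 tested. Among the negative genes 11 had none in vehicle M0 and 8 none in ISRIB M1, and among the positive genes 12 had none in ISRIB M0 and 5 none in vehicle M1.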

How the data were processed

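Polyadenylated RNA of 12 libraries was sequenced after a strand-specific TruSeq preparation, per the labels' protocols. The authors deposited whole-number counts per gene symbol for 24552 symbols, and a table of log2 values of the same counts scaled per library. The submitters' processing notes name FastQC, HTSeq, DESeq2 and the genome build mm10. The strand setting and the annotation are not given in the sources used here. Each column matched the description of 1 sample, and groups came from the sample titles.

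Counts were fitted with edgeR 4.0.16 in R 4.3.3. The filter filterByExpr, set to 10 counts at least and a total of 15, kept 2356 genes with 97.6% of counts, libraries were scaled by TMM, and the interaction was tested by quasi-likelihood over all 12 libraries with Benjamini-Hochberg adjustment at 0.05. The common biological coefficient of variation was 0.275. Log2 effects used a prior count of 2. Standard errors came from the fit with the default prior count and are not given where a group had no count. In thinly counted genes the effect divided by its standard error therefore does not give the p-value. The polarized genes came from a fit of state alone. A count of 0 allows up to 3 counts, and floors cover counting error only. The steps were tested on simulated data.

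Genes named were: any called gene, the 8 with the lowest p in each direction among those averaging 20 counts or more, the 5 largest rises and falls of state among those averaging 50 or more, the 2 members with the lowest p under 0.05 in each list, and 12 genes set by name. Others were named after their values were seen: C1qc, Cfl1, Tmsb4x, Marcksl1, Eif2ak2 and Ppp1r15b. Members and lists were chosen with earlier results of these data known. Of the symbols, 24178 were matched to GENCODE on GRCm38, 148 of these through synonyms. Alternatives were other scalings, filters, tools and gene choices, the replicate block and each library left out.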

Additional observations from a re-analysis of the deposited data

How the results depend on the processing

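The count of genes past the adjusted test was 0 under other scalings, a minimum mean of 50 counts, limma-voom, DESeq2, limma with the authors' deposited log2 values, a minimum absolute log2 change of 1, and in genes with a count in every group, a choice made after seeing the data. It was 9 with no filter on low counts. Each library was also left out in turn, with the low-count filter rerun. This left 2679 genes tested without ISRIB M0 replicate 1 and 2617 without ISRIB M0 replicate 2. The count past the adjusted test then ranged from 0 to 4. Without ISRIB M0 replicate 1 the 4 were Basp1, Mir762, Mrpl48 and Pitpna, without ISRIB M0 replicate 2 the 1 was Gbp7, and without any other library it was 0. The cause was not tested. Genes with an unadjusted p under 0.05 numbered 65 with a minimum mean of 50 counts and 73 with a minimum log2 change of 1, where fewer genes could pass, 534 with no filter, where more were fitted, and 169 to 190 with each library left out.

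The replicate number was not shown to pair the samples: deviations of same-numbered libraries correlated at -0.06 to 0.113 (median 0.0214), with 1 of 18 over 0.1. With the replicate block 3 genes passed in edgeR, Basp1 (-1.44, adjusted p = 0.0244), Mrpl48 (-2.01, adjusted p = 0.0244) and 4930539J05Rik (-1.39, adjusted p = 0.0449). The index gave -0.0056 with the block and 0.00456 for the lower genes (exact sign-flip p = 1.0 for both, where 3 pairs cannot reach 0.05).

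The index differences were near 0 throughout, and their sign changed with the setting while no p passed. With DESeq2 size factors they were 0.0151 for the higher and 0.0068 for the lower genes, with upper-quartile scaling 0.0071 and 0.0025, and with a minimum mean of 50 counts -0.0626 for the index and 0.0016 for the lower genes. The deposited log2 values gave 0.0025 for the higher genes, and genes with at least a 2-fold state change 0.0197. Genes with an opposite-strand overlap gave -0.075 for the index and 0.02996 for the lower genes, and those without gave 0.067 for the higher genes. Leaving out each library gave -0.0541 to 0.0787 for the index, -0.0694 to 0.0306 for the higher and -0.0592 to 0.0152 for the lower genes.

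Classes called in vehicle alone had median interactions of -0.12 (higher) and 0.13 (lower), and those called in ISRIB alone 0.0688 and -0.14, by the choice of genes. The sign of single genes changed for Il1b (-0.58 in DESeq2, -0.36 in limma-voom, -0.0477 on the deposited values) and Prune2 (0.62 in limma-voom, 0.32 on the deposited values). With each library left out the interaction ranged from -0.36 to 0.24 for Phrf1, -0.86 to 0.12 for Ifit2, -0.36 to 0.64 for Rsad2, -0.87 to 0.71 for Prune2, -0.57 to 0.33 for Ccdc127, -0.48 to 0.26 for Nos2, -0.29 to 0.26 for Il1b, -0.0414 to 0.23 for Cxcl9 and -0.27 to 0.13 for Ddit3. The cause was not tested. Of 857 values for single genes under alternatives, 818 kept their direction and side of the threshold. Depth limited the genes under 10 counts, whose median standard error was 1.36.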
